A study of Mus musculus with 9 samples.

Results

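The cytochrome P450 genes of the mouse were followed on the arrays of postnatal day 3 (PND3). Members were all probes, other than control spots, whose gene name on the array begins with Cyp and a digit, without the adrenal and gonadal steroid enzymes Cyp11a1, Cyp11b1, Cyp11b2, Cyp17a1 and Cyp21a1. The rule found 67 genes on 100 probes, out of 28786 genes on the array. The scanner software flags each spot as well above background or not. A probe counted as measured if both arrays flagged it in the same genotype, and the brightest measured probe stood for its gene. By this standard 50 of the 67 genes were measured, and 20922 of all genes.

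The study compared mice homozygous for the Glis3zf mutation of the transcription factor Glis3 with wild-type (WT) mice, both on the C57BL/6 strain, in RNA labelled as pancreas. At PND3, RNA of 2 mutant pups made up 1 pool and RNA of 2 WT pups another, and both pools were hybridised together to 2 two-colour arrays with the dyes exchanged. The array that carried mutant RNA in Cy5 is called the Cy5 array here, and the one that carried it in Cy3 the Cy3 array. Pairs of values are given in that order. With 1 pool per genotype there is no replicate check: the spread between pups is unknown, the difference between the arrays is technical, and no p-value or SD is given. In pooled tissue, fewer cells of a type and less RNA per cell cannot be told apart.

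Both pools carried little signal from genes that define pancreas. None of the 9 measured acinar enzyme genes and none of the 5 measured islet genes reached a processed signal of 1000 in either pool, and Ins1, Gcg, Amy2a5, Cela2a, Ptf1a and Ppy were not measured. Of 16 proximal tubule genes of the kidney, 13 exceeded that signal in both pools on both arrays. The summed signal of the 16 was 390899.5 and 396696.7 in the mutant pool and 431383.4 and 466766.2 in the WT pool. These values go against the pancreas label in both pools, so the P450 values are those of RNA whose tissue label is in doubt. Of 16 measured liver genes, 3 exceeded a signal of 1000 throughout, namely Afp at 20697 to 34426, Serpina1d at 6114 to 7222 and Fgb at 1688 to 2072. The signals of Alb were 86.5 and 96.2 for mutant and 31.7 and 49.0 for WT RNA, and Apoa1 and Cps1 were not measured. For Glis3 itself, the probe gave signals of 3.39 and 3.88 in the mutant pool, too low for the flag, against 21.5 and 22.1 in the WT pool. The labels do not say which exons the probe or the mutation touches, so these signals do not check the genotype on their own.

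Cytochromes P450 are heme enzymes that insert an oxygen atom into small lipophilic molecules, taking electrons from NADPH through the reductase Por in the endoplasmic reticulum or through ferredoxin in mitochondria. One set of families clears drugs, odorants and other foreign compounds. The others make or remove signalling lipids: Cyp4 enzymes hydroxylate the far end of fatty acids, Cyp2j enzymes epoxidise arachidonic acid, Cyp26 enzymes inactivate retinoic acid, and Cyp27b1 and Cyp24a1 activate and inactivate vitamin D. The proximal tubule and the liver are major sites of many of these enzymes.

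Many members are close paralogs, so the probes themselves bear on what was measured. Each probe on the array is 60 bases long. The printed probes are those of some genes described below, and several genes with large ratios are not among them. The Cyp2j11 and Cyp2j13 probes, taken as deposited in the scanner files, overlap over 30 bases when aligned to each other without gaps, and 28 of these are identical. Capitals mark the 2 differing bases. These probes are shown 5′ to 3′ as follows, without positions in the genome since the scanner files state no build.
Cyp2j11 probe: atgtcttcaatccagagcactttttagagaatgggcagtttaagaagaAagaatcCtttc
Cyp2j13 probe: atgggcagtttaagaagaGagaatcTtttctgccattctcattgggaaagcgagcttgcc
Cyp26a1 probe: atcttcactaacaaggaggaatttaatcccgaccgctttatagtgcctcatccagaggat
Cyp4a10 probe: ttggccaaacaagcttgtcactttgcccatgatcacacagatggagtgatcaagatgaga
Cyp2d9 probe: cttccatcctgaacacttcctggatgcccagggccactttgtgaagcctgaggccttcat
The Cyp2j11 probe is that gene's brightest, and the Cyp2j13 probe is the second brightest of 3. The Cyp4a10 probe is the dimmest of 3, and the ratio given for Cyp4a10 comes from the brightest. RNA of near-identical genes, which these probes may not separate, makes the values of single Cyp2j, Cyp4a, Cyp2d, Cyp2c, Cyp2a and Cyp3a genes uncertain.

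No measured P450 gene reached a 2-fold normalized ratio on both arrays. The ratio of mutant over WT reached 2-fold on both arrays for 0 of the 50 measured genes in either direction. Among all genes, 0.0335% were at least 2-fold higher and 0.158% at least 2-fold lower in the mutant pool. At 1.5-fold the count was again 0 and 0, where 0.253% of all genes were higher and 0.626% lower. At 1.25-fold, a limit of 0.32 on the log2 scale that was chosen after the values were seen, 3 members were higher (Cyp4a14, Cyp4a10 and Cyp2d22) and 3 were lower (Cyp26a1, Cyp2j11 and Cyp24a1). That is 6% of the measured members in each direction, beside 1.84% of all genes higher and 2.94% lower. Under median centring in place of loess the counts were 0 higher and 4 lower, or 8% of the members, beside 10.4% of all genes, so the larger share among the members was not seen under that scaling. The Cy3 value of Cyp24a1, -0.33, lay just inside that limit, and the Cy5 values of Cyp4a12 and Cyp2d9, each 0.30, lay just outside it. In any size, 22 members were higher on both arrays and 17 lower, which is 44% and 34%, beside 30.8% and 37.9% of all genes. The same shares of all genes stand beside the counts by role, subfamily and list below. The median log2 ratio of the members was 0.03, against -0.01 for all measured genes. The background correction behind these values added an offset of 50, which draws ratios of dim probes toward 0. A 2-fold difference in a dim gene could go uncounted, and 15 members had all 4 signals under 100. The scanner software's own ratio, which adds no offset, also put 0 members at 2-fold on both arrays, beside 0.836% of all genes. At 1.5-fold it put 5 there, or 10%, beside 2.7% of all genes. Among these 5, Cyp1a1 and Cyp2f2 counted as measured through the WT pool alone, so a lower mutant value was partly built into their selection.

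**Figure D1:**
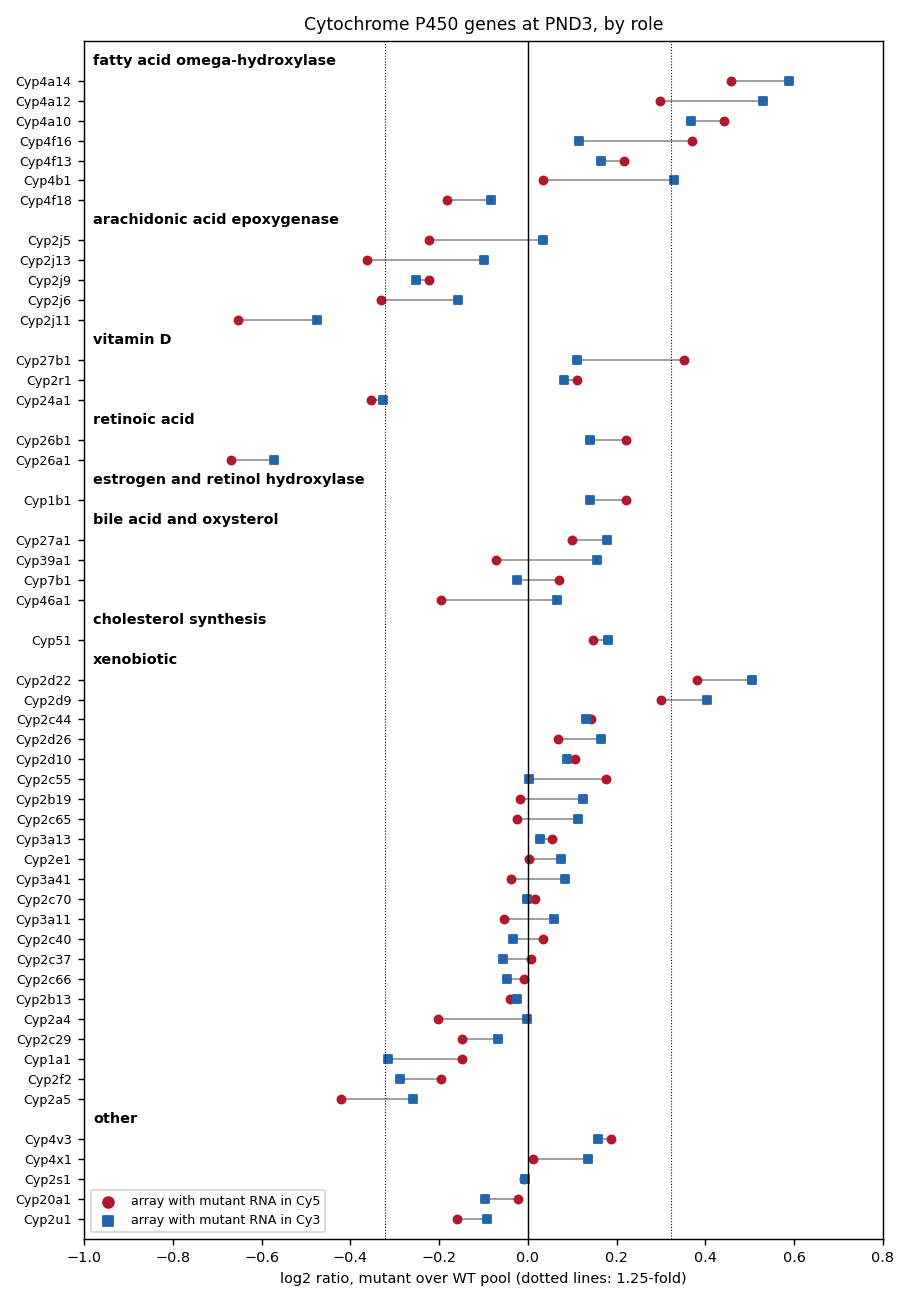
Log2 ratio of mutant over WT on each array for the 50 measured P450 genes, grouped by role; the grey line joins the 2 arrays of a gene and dotted lines mark 1.25-fold. The Cyp4a genes lie to the right, the Cyp2j genes mostly to the left, and Cyp26a1 farthest to the left at a mean of -0.62.

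The arrays measured these ratios with a technical scatter close to that of the whole array. The difference between the 2 arrays had a median of 0.10 for the members and 0.11 for all genes, in log2 units, and was at most 0.30 for any member. The sign was the same on both arrays for 39 of the 50 members, or 78%, and for 68.7% of all genes. A mean ratio within about 0.1 of 0 is therefore no larger than the usual difference between the arrays.

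**Figure D2:**
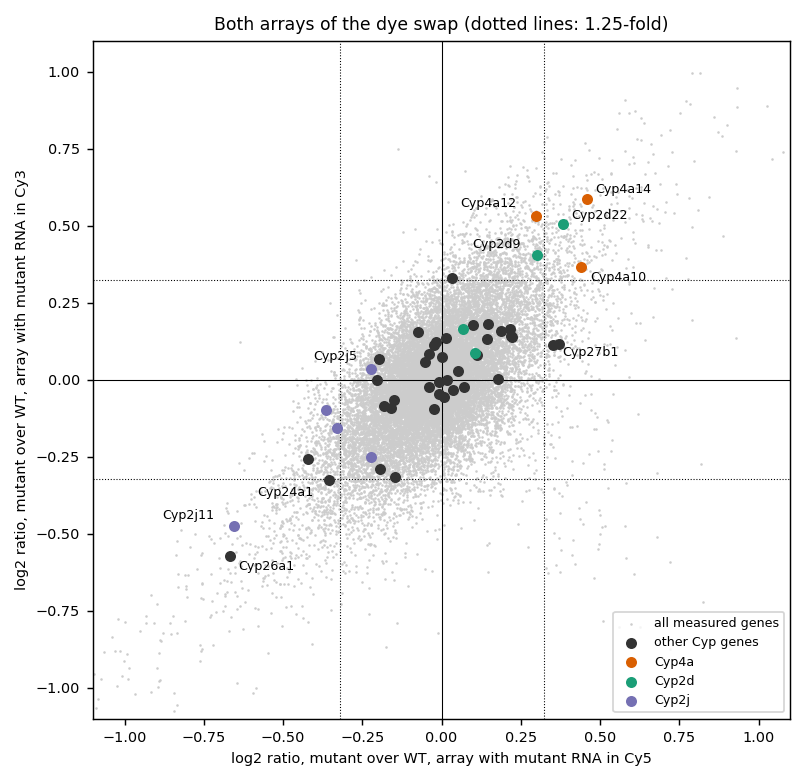
Log2 ratio of mutant over WT on the Cy5 array (horizontal) against the Cy3 array (vertical), for all measured genes in grey and the 50 P450 genes in colour. The Cyp4a and Cyp2d points lie in the upper right, Cyp2j11, Cyp26a1 and Cyp24a1 in the lower left, and Cyp2j5 has opposite signs on the arrays.

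The fatty acid omega-hydroxylases were the role with the highest ratios. Of 9 members 7 were measured, 6 of them higher in the mutant pool on both arrays and 1 lower, with a median log2 ratio of 0.24. Among all genes, 30.8% were higher and 37.9% lower on both arrays. Cyp4a14, which hydroxylates medium and long chain fatty acids, gave processed signals of 10826 and 12572 in the mutant pool and 7525 and 8695 in the WT pool. The mutant signal was above the WT signal on both arrays. The mean log2 ratio was 0.52, a fold of 1.44, with 0.46 and 0.59 on the single arrays.

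Cyp4a10, its neighbour in the genome, gave signals of 4414 and 4769 in the mutant pool against 3211 and 3736 in the WT pool. Its mean log2 ratio was 0.40. All 3 of its probes were measured and gave means between 0.40 and 0.41, the probe printed above 0.41. Cyp4a12, known as an androgen-induced enzyme in the adult kidney, had signals of 1556 and 1871 in the mutant pool and 1191 and 1347 in the WT pool, for a mean log2 ratio of 0.41. A second Cyp4a12 probe, with signals between 118.6 and 146.4, gave 0.01, so the probes of this gene disagree.

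In RefSeq's table for GRCm38.p6 the 8 Cyp4a genes lie side by side on chromosome 4, with no other protein-coding gene between them. A further gene of this cluster, Cyp4a31, stands on the array under another name and so fell outside the rule; it was looked up after the other values were seen. Its 2 measured probes gave mean log2 ratios of 0.40 and 0.35. These probes may share RNA of near-identical genes, so the Cyp4a values may not be independent measurements.

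The other omega-hydroxylases differed less. Cyp4f16, which belongs to a subfamily that breaks down leukotrienes, had a mean log2 ratio of 0.24, with 0.37 and 0.11 on the arrays. Cyp4f13 gave 0.19 and Cyp4b1 0.18, the latter resting on the Cy3 array (0.33, against 0.03 on the other). Cyp4f18, which acts on leukotriene B4 in neutrophils, was lower at -0.13. Cyp4f14 and Cyp4f15 were not measured.

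The Cyp2j genes, the only members grouped here as arachidonic acid epoxygenases, went the other way. The Cyp2c genes were grouped with the xenobiotic members and gave mean log2 ratios from -0.11 to 0.14, the highest in Cyp2c44. All 5 Cyp2j genes were measured, with a median log2 ratio of -0.24. On both arrays 4 of them were lower in the mutant pool, beside 37.9% of all genes, and 1 was of opposite sign. Cyp2j11 gave signals of 496.2 and 578.1 in the mutant pool and 773.7 and 869.8 in the WT pool. The mutant signal was below the WT signal on each array. The mean log2 ratio was -0.56, so the WT level was 1.48 times the mutant level, and a second probe gave -0.70.

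Cyp2j6 and Cyp2j9 gave -0.24 each. Cyp2j6 had signals of 1430 and 1786 in the mutant pool and 1798 and 1980 in the WT pool, which nearly touch. Cyp2j13 gave -0.23 on its brightest probe, with -0.36 and -0.10 on the arrays, a difference larger than that mean, and -0.18 on the probe printed above, while its dimmest probe, with signals between 60.1 and 71.3, gave 0.00. Cyp2j5, the epoxygenase known from proximal tubule and studied for its effect on blood pressure, had signals of 12120 and 13370 in the mutant pool and 13371 and 13941 in the WT pool. Its log2 ratio was -0.22 on one array and 0.03 on the other, so its difference did not exceed that between the arrays. The 7 Cyp2j genes also lie side by side on chromosome 4, and 2 of them, Cyp2j8 and Cyp2j12, are not among the members.

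**Figure D3:**
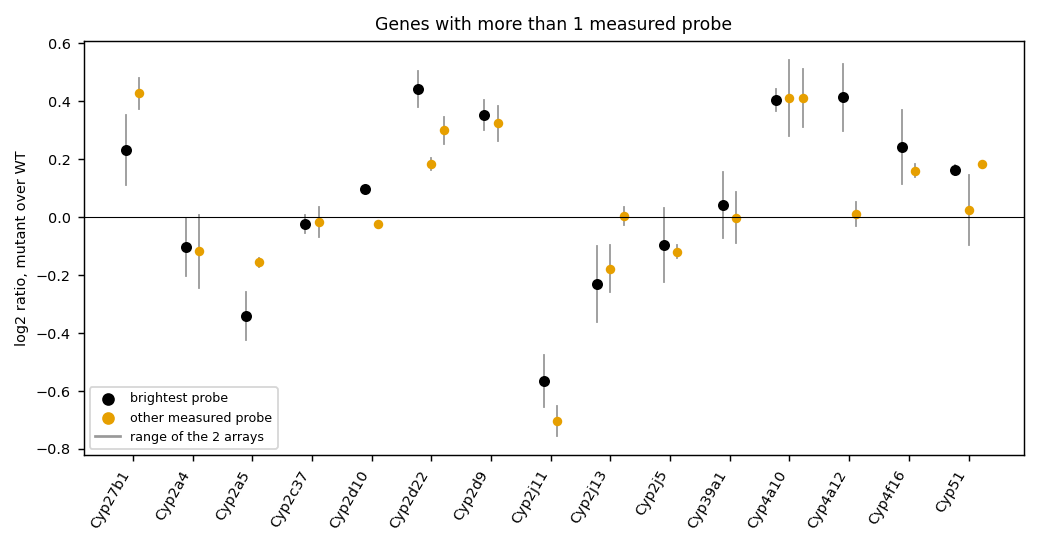
Mean log2 ratio of mutant over WT for every measured probe of the 15 P450 genes with more than 1; black points are the brightest probe, orange points the others, and grey lines span the 2 arrays. The 3 Cyp4a10 probes coincide near 0.4 and both Cyp2j11 probes lie below -0.5, whereas the 2 Cyp4a12 probes differ by 0.40.

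Of the retinoic acid hydroxylases 1 was lower and 1 slightly higher. Cyp26a1, the enzyme that clears retinoic acid and is itself switched on by it, gave signals of 87.3 and 105.5 in the mutant pool and 166.6 and 195.1 in the WT pool. The mean log2 ratio of -0.62, with -0.67 and -0.57 on the arrays, was the lowest of the measured members, a WT level 1.54 times the mutant level. These signals are low, and the scanner software's own ratio, which adds no offset, was -0.91. Cyp26b1, its relative that clears retinoic acid in other embryonic tissues, had signals of 1698 and 1875 in the mutant pool and 1522 and 1616 in the WT pool, for a mean of 0.18. Median centring took that value to 0.00, and the signals of this probe nearly equal those of the Cyp1b1 probe in all 4 channels, although they are separate spots. Cyp26c1 had no probe under that name.

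The Cyp26a1 promoter is printed because it holds the sequence through which retinoic acid receptors act on this gene. The 250 bases before the RefSeq start lie at chr19:37697558-37697807 of GRCm38.p6, plus strand, and capitals mark the match to the retinoic acid response element.
Cyp26a1 promoter: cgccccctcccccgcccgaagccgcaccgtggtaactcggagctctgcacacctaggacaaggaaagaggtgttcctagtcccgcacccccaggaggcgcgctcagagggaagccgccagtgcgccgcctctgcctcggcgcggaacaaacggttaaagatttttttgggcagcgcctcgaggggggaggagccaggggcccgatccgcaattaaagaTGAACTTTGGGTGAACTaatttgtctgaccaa
The motif searched was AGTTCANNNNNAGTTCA on both strands of the window from 250 bases before to 50 bases after each RefSeq start. It was found in 8 of 32851 promoters, or 0.0244%, and, counted by gene, in 1 of the 40 measured members that the promoter table holds. Cyp26a1 was chosen because it holds this element, so its match is no test. Looser forms of the element were not searched. In Cyp26a1 the motif lies on the strand opposite to the gene, its first base 32 bases before the start. Of 7 measured genes on a list of other retinoic acid targets, added after the Cyp26a1 value was seen, 3 were higher and 1 lower on both arrays, with a median of 0.02. At 1.25-fold 1 of these was higher, the binding protein Crabp1 at 0.39, while the vitamin A carrier receptor Stra6 gave 0.20 and the receptor Rarb 0.00.

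The vitamin D enzymes also went different ways. Cyp24a1, the mitochondrial enzyme that inactivates vitamin D hormone, gave signals of 6571 and 7516 in the mutant pool and 8560 and 9147 in the WT pool. The log2 ratio was -0.35 and -0.33 on the arrays, a mean of -0.34. Cyp27b1, which makes the hormone in the proximal tubule, gave signals of 164.9 and 306.2 in the mutant pool and 116.8 and 267.8 in the WT pool. The ranges overlap between arrays, but the mutant signal was the higher one on each array, with a mean log2 ratio of 0.23, and its second probe gave 0.43. Cyp2r1, a 25-hydroxylase of vitamin D, had signals between 54.3 and 68.9 and a mean of 0.10.

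Of 10 genes for vitamin D uptake and action, 10 were measured, 3 higher and 5 lower on both arrays, with a median of -0.04 and none at 1.25-fold. The vitamin D receptor Vdr, through which the hormone switches on Cyp24a1, gave -0.25, and the uptake receptor Lrp2 gave -0.17. The calcium channel Trpv5, a target of the hormone in the distal tubule, gave 0.26.

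Of 34 members with xenobiotic roles 22 were measured, 8 higher and 7 lower on both arrays, with a median of 0.01. Among all genes, 30.8% were higher and 37.9% lower on both arrays. The highest values of the xenobiotic members belonged to Cyp2d genes, the subfamily of human CYP2D6. All 4 measured Cyp2d members were higher on both arrays, with a median of 0.23. Cyp2d22 gave signals of 1032 and 1193 in the mutant pool and 753.1 and 824.0 in the WT pool, and a mean log2 ratio of 0.44. Its other 2 probes gave 0.18 and 0.30.

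Cyp2d9, known as a male-enriched steroid hydroxylase of mouse liver, had signals of 5764 and 6580 in the mutant pool and 4486 and 5055 in the WT pool, a mean of 0.35. Its second probe gave 0.32. Cyp2d10 gave 0.10 and Cyp2d26 0.12, the latter with signals between 31380 and 36519 in both pools. Cyp2d13 was not measured. Centring each array on its median in place of loess turned the last 2 values to -0.13 and -0.16, so their direction depends on the scaling, whereas Cyp2d9 and Cyp2d22 stayed above 0 at 0.13 and 0.29. The gene Cyp2d12, which the array names otherwise and which was looked up after the values were seen, gave 0.47.

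A stretch of the Cyp2d promoters is printed to show a motif that they share. The motif was AGNNCANAGNNCA, searched on both strands of the same window, a loose form of the direct repeat bound by the liver and kidney regulator HNF4A. It was found in 913 of 32851 promoters, or 2.78%, and in 7 of the 40 measured members in the table. The first count is of promoters and the second of genes, so the shares are not in the same unit. Counted by gene, the motif was in all 5 Cyp2d genes of the table and in 2 of 7 Cyp2j genes, Cyp2j11 and Cyp2j13. These genes are close paralogs, so their matches may not be independent. Capitals mark the match and 10 bases are given on each side, from RefSeq's GRCm38.p6, in the gene's direction.
Cyp2d9, chr15:82452313-82452345, plus strand: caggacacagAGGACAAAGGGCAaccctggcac
Cyp2d10, chr15:82407229-82407261, minus strand: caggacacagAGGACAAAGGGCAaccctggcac
Cyp2d26, chr15:82794285-82794317, minus strand: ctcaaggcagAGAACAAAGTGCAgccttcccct
The match began 54, 57 and 62 bases before the start of these genes. Cyp2d9 and Cyp2d10 carry identical letters here, with mean log2 ratios of 0.35 and 0.10, and a second, dimmer Cyp2d10 probe gave -0.02. The part of the motif in these ratios was not tested. Cyp2d22 was not in the promoter table. The Hnf4a gene gave -0.06.

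The remaining xenobiotic members were dim. Cyp2e1, the ethanol-metabolising enzyme, had signals between 74.3 and 94.8 and a mean log2 ratio of 0.04. Cyp3a11 and Cyp3a13, the counterparts of human CYP3A4, had signals between 29.6 and 47.3 and means of 0.00 and 0.04. Of 11 Cyp2c genes 8 were measured, with signals between 14.9 and 225.8 and mean ratios from -0.11 to 0.14. Cyp2a4, Cyp2b13, Cyp2b19 and Cyp3a41 ranged from -0.10 to 0.05. Cyp1a2, Cyp2b9, Cyp2b10, Cyp3a16, Cyp3a25 and Cyp3a44, all of them strongly expressed or inducible in liver, were not measured, nor were Cyp2a12, Cyp2c38, Cyp2c39, Cyp2c54 and the olfactory enzyme Cyp2g1.

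Low ratios among the dim genes depend on the offset. Cyp2a5, which oxidises coumarin, had signals of 27.6 and 37.7 in the mutant pool against 57.6 and 58.0 in the WT pool and a mean of -0.34, and the scanner's own ratio was -0.84. A second Cyp2a5 probe, with signals between 30.4 and 39.3, gave a mean of -0.16. Cyp2f2, a lung club cell enzyme, gave -0.24 and passed the background flag in the mutant pool on 1 array only, and the scanner's own ratio was -0.99. Cyp1a1, the classic target of the dioxin receptor Ahr, passed the background flag on neither array in the mutant pool and on both in the WT pool. Its signals were 12.2 and 3.96 in the mutant pool and 19.7 and 19.5 in the WT pool, and the normalized levels put it at least 1.13-fold lower in the mutant pool. The scanner's own ratio, from mutant signals too low for the flag, was -0.695 and -2.30 on the arrays, a mean of -1.50. The Ahr gene gave 0.16.

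**Figure D4:**
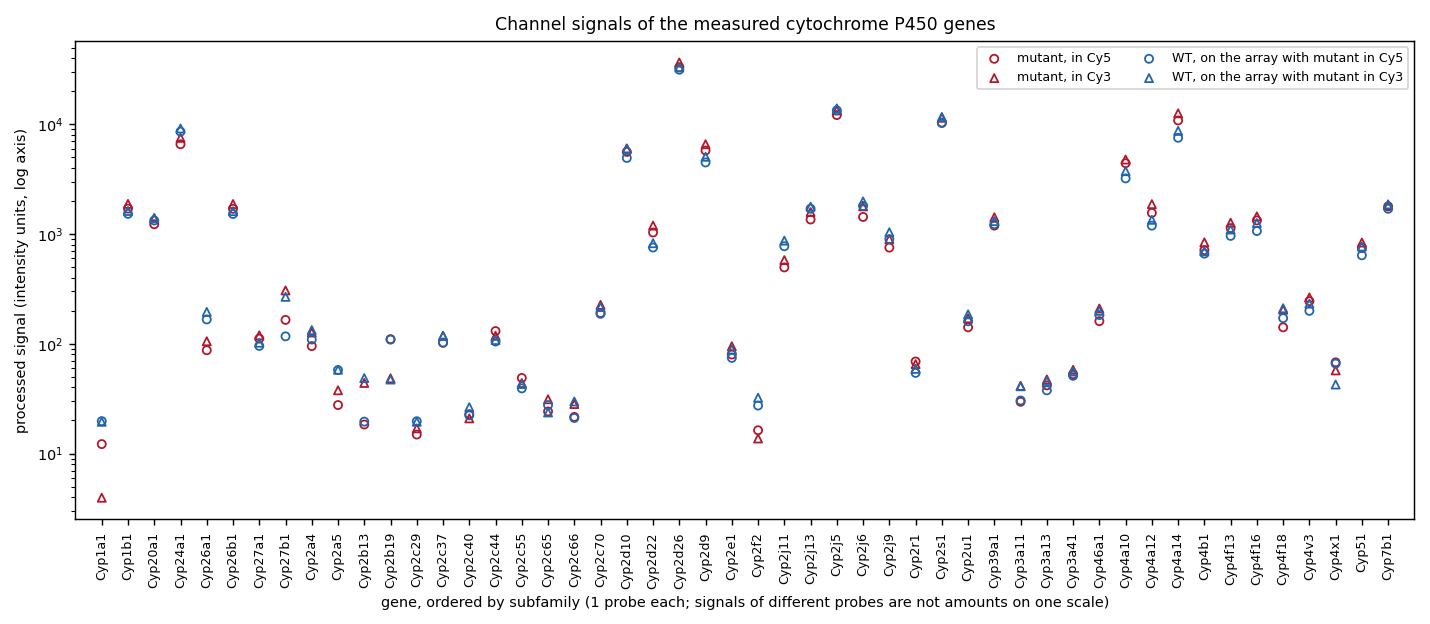
Processed signal (log axis) of each measured P450 gene in the mutant pool (red) and the WT pool (blue) on both arrays, 1 probe per gene in subfamily order. Mutant and WT signals nearly coincide for most genes, and signals are 1000 or more throughout for 17 of the 50, among them Cyp2d26, Cyp2j5, Cyp2s1, Cyp4a14 and Cyp24a1.

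The sterol enzymes differed little. Cyp51, the lanosterol demethylase of cholesterol synthesis, gave signals of 745.4 and 836.6 in the mutant pool and 639.4 and 768.8 in the WT pool, a mean of 0.16. Its 3 probes ranged from 0.02 to 0.19. Of 18 cholesterol synthesis genes on a list of the pathway, all measured, 8 were higher and 4 lower on both arrays, with a median of 0.06 and 1 higher at 1.25-fold, Fdft1 at 0.40.

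In bile acid synthesis the liver enzymes Cyp7a1, which sets the rate, and Cyp8b1 were not measured. Cyp7b1, an oxysterol hydroxylase, gave 0.02 at signals between 1697 and 1864, and Cyp39a1, another, gave 0.04. Cyp27a1, which starts the acidic pathway and also hydroxylates vitamin D, gave 0.14, and the brain cholesterol hydroxylase Cyp46a1 gave -0.07. Cyp19a1, the aromatase that makes estrogen, was not measured.

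Among members of other roles, Cyp1b1, which oxidises estrogen and retinol, gave a mean of 0.18, and 0.00 under median centring. Cyp4v3, a fatty acid hydroxylase, gave 0.17, and the dim Cyp4x1 0.07. Cyp2s1 had signals between 10254 and 11651 and ratios of -0.01 on both arrays. Cyp1b1 and Cyp2s1 each had another probe that was not measured. The orphan enzyme Cyp20a1 gave -0.06 and Cyp2u1 -0.13.

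Genes that serve all P450s had medians near 0, with single genes that differed. The electron donor Por gave -0.02 and the mitochondrial ferredoxin Fdx1 -0.13. All 9 donors were measured, 2 higher and 5 lower on both arrays, with a median of -0.03. The cytochrome b5 gene Cyb5a gave -0.27 and its reductase Cyb5r3 0.34. Of 11 heme synthesis and breakdown genes, 3 were higher and 6 lower, with a median of -0.04. The rate-setting Alas1 gave 0.11. The heme oxygenase Hmox1, which breaks heme down, was the 1 gene of this list at 1.25-fold, higher at 0.44 (0.49 and 0.40 on the arrays). Of 22 regulators of P450 genes, 8 were higher and 8 lower, with a median of 0.01 and none at 1.25-fold.

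Partners of the Cyp2j and Cyp4a enzymes were read in the same way. Of 12 genes of the eicosanoid pathway, 4 were higher and 6 lower on both arrays, with a median of -0.09. The soluble epoxide hydrolase Ephx2, which removes the epoxides that Cyp2j enzymes make, gave -0.20, and the phospholipase Pla2g4a, which frees arachidonic acid, also gave -0.20. The nuclear receptor Ppara, which switches on Cyp4a genes in response to fatty acids, gave -0.03. Of 16 other targets of it, on a list added after the Cyp4a values were seen, 8 were higher and 3 lower, with a median of 0.06, none at 1.25-fold. The highest were Cpt2 at 0.30, Ehhadh at 0.27, Vnn1 at 0.27 and Angptl4 at 0.24, and Cpt1a, which lets fatty acids into mitochondria, gave 0.05.

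Enzymes that act beside P450s on foreign compounds were read as well. Of 38 measured phase II conjugation genes, 15 were higher and 16 lower on both arrays, with a median of -0.01. At 1.25-fold 3 were higher and 2 lower, beside 1.84% and 2.94% of all genes. The glutathione transferases Gsta1 at 0.68 and Gsta2 at 0.66 were higher by more than any P450 member, Ugt1a6b was the third higher gene, and Tpmt and Mgst3 were the lower ones. Of 5 measured flavin monooxygenases, 3 were lower and 0 higher, with a median of -0.13. The steroid P450s kept out of the family included 4 genes on the array. Cyp17a1 gave 0.19, Cyp21a1 0.02 and Cyp11a1 -0.01, and Cyp11b2 was not measured.

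Markers of other cell types and Y-linked genes also differed between the pools. Of the 3 measured Y-linked genes all were higher in the mutant pool, with a median log2 ratio of 0.91 and a summed signal of 604.8 and 648.1 against 204.3 and 205.4 in the WT pool. Of 10 measured oocyte genes all were lower in the mutant pool, with a median of -1.61. Their summed signal was 344.0 and 345.5 against 2807 and 3051, while Zp1, Bmp15 and Oosp1 were not measured. Zp2, Nlrp5, Nlrp14 and Figla passed the background flag on neither array in the mutant pool, and Dppa3 and Oas1d on 1 only. These counted as measured through the WT pool alone, so a lower mutant value was partly built into their selection. Of 9 measured adipose genes 8 were lower and 1 higher, with a median of -0.81 and a summed signal of 57331 and 61595 against 67074 and 73739. Among all genes, 37.9% were lower and 30.8% higher on both arrays. The 8 measured adrenal cortex genes had a median of -0.07, with Mrap at -0.96 and Hsd3b1 at -0.59 lower by 1.25-fold on both arrays. The 14 measured somatic genes of ovary and testis had a median of -0.01, with Amhr2 lower by 2-fold on both arrays at -1.34, and the 4 measured lung club cell genes had one of 0.01. These values accompany the Cyp4a12 and Cyp2d9 ratios, genes known to differ between the sexes in adults, and their part in those ratios was not tested. Kap, an androgen-regulated proximal tubule gene, was lower in the mutant pool at -0.59.

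The proximal tubule list stood beside the Cyp4a, Cyp2j, Cyp24a1 and Cyp27b1 values with 5 genes higher and 5 lower of 16, a median of 0.01 and a range from -0.59 to 0.33. The liver list had 6 higher and 6 lower of 16 measured, a median of -0.03 and a range from -0.99 for Ttr to 1.64 for Ahsg. Its summed signal was 32067 and 35150 in the mutant pool and 44475 and 47500 in the WT pool, most of it from Afp, which gave -0.64. The part of either tissue's cells in the P450 ratios was not tested.

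Ratios of bright genes depended on the scaling more than others. Median centring in place of loess moved the median of all genes from -0.01 to -0.11, and it moved Cyp4a14 to 0.28, Cyp4a10 to 0.19, Cyp2s1 to -0.25 and Cyp24a1 to -0.58. The 3 Cyp4a genes stayed above 0 and the 5 Cyp2j genes below 0 on average in both, and on the Cy3 array alone Cyp2j5 was above 0.

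**Figure D5:**
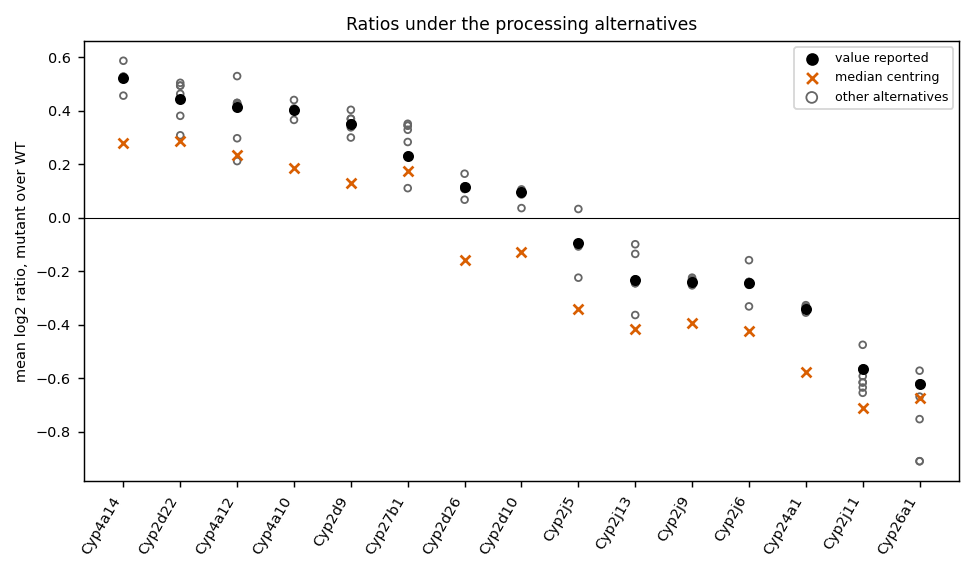
Mean log2 ratio of mutant over WT of 15 P450 genes as reported (black), under median centring (orange crosses) and under the other 9 alternatives (open circles). Cyp4a14, Cyp2d22, Cyp4a12, Cyp4a10, Cyp2d9 and Cyp27b1 stay above 0 and Cyp24a1, Cyp2j6, Cyp2j9, Cyp2j11, Cyp2j13 and Cyp26a1 below 0, whereas Cyp2d26, Cyp2d10 and Cyp2j5 cross 0.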

How the data were processed

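At PND3, 1 mutant and 1 WT pool (2 pups each, 500 ng of RNA, purified on Qiagen columns and amplified, per the labels' protocols) were analysed as a dye swap. Per spot, the deposited scanner files give intensities of the spot and its background, processed signals as intensities, and a log10 ratio of Cy5 over Cy3, per the file headers. Per the file headers, flags for spot type and quality were read too. In the authors' deposited value table, values are log2 and correlated with the scanner's mutant over WT ratio at r = 0.9996 and 0.9997, which gives their direction, and both medians are 0. Per the submitters' processing notes the software was Agilent Feature Extraction 8.1, while the file headers name 9.1.3.1.

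R 4.3.3 and limma 3.58.1 were used. The normexp background correction had an offset of 50, which draws ratios of dim probes toward 0. Loess then normalized each array, giving control spots no weight, and the Cy3 array's sign was turned. Spots the scanner marked as outliers (18 and 26 of 43379) were dropped, no spot was saturated, and spots of a probe were averaged. Per channel, 72.8% to 76.6% of spots passed the background flag, and only 1 pool per genotype limits the precision. Of 41174 probes, 22951 took a RefSeq symbol through their accession; P450 genes kept the array's name. For a gene flagged in 1 pool only, the fold compares channel levels after loess and Aquantile, the dim level being raised to the lowest of any flagged probe. A gene was counted when both arrays passed the fold in the same direction.

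Named genes were any 1.5-fold apart on both arrays (there were 0), the 8 highest and 8 lowest mean ratios with the same sign on both arrays, and 30 genes of fixed roles. Others were named after their values were seen. The members, the 19 lists and the rules were chosen with earlier results of these data known, and 2 lists and the 1.25-fold limit were added later. From these 2 lists, 3 genes that are not reported here were taken out, whatever their values. The steps were tested on simulated data. E15.5 arrays (3 WT, 4 mutant) were not analysed here, since no table pairing their probe sets with genes was used.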

Additional observations from a re-analysis of the deposited data

How the results depend on the processing

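The 10 alternatives left 0 genes at 2-fold on both arrays. At 1.5-fold the reported count was 0. The scanner software's ratio and the authors' value table each gave 5, or 10% of the members, beside 2.7% of all genes. All 5 were lower in the mutant pool (Cyp1a1, Cyp26a1, Cyp2a5, Cyp2f2 and Cyp2j11). Of these, Cyp1a1 and Cyp2f2 counted as measured through the WT pool alone, and both are also in the scanner's count at 1.25-fold. Median centring and an offset of 16 each gave 1 (Cyp26a1), beside 1.32% and 1.3% of all genes, the Cy5 array by itself gave 2 (Cyp26a1 and Cyp2j11), beside 1.37%, and the other array gave 1 (Cyp4a14), beside 1.77%. These counts of 1 and 2 are 2% to 4% of the members. At 1.25-fold, where the reported count was 6, the scanner's ratio and the value table each gave 10. That is 20% of the members, beside 10.2% of all genes. The Cy5 array by itself gave 11, or 22%, beside 8.89%. The Cy3 array gave 9, or 18%, beside 12%. Median centring gave 4, or 8%, beside 10.4%, with 0 higher and 4 lower in place of 3 and 3. Between 48 and 67 genes were measured under the filters tried, and the family median ranged from 0.0044 to 0.062. Of 36 named genes, median centring moved 19 by more than the difference between that gene's arrays, the scanner's ratio 8, the offset of 16 moved 7 and the mean of probes 3. Median centring changed the sign of Cyp2d10, Cyp2d26, Cyp39a1 and Cyp7b1, and the scanner's ratio that of Cyp3a11. The other filters and kept outlier spots left the values of the named genes as they were where these stayed measured. The filter that asked for the flag in both pools on both arrays kept 34 of the 36, without Cyp1a1 and Cyp2f2. No paired analysis was possible because PND3 has 1 pool per genotype. The E15.5 alternatives (replicate block, median centring, a pseudocount of 64, no filter, and each replicate left out) were not run, since that comparison was not made. Low signal over background limits the Cyp1a1, Cyp2a5, Cyp2f2, Cyp2c and Cyp3a values.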
